A study of Mus musculus with 6 samples.

Results

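Cytochromes P450 of the CYP2 family were followed gene by gene in mouse liver 6 h after the gut hormone FGF19 was given. The family was taken as every gene in the count files whose symbol is Cyp2 followed by a subfamily letter and a number, which are 48 of 23284 genes, and the 29 of them with a mean of at least 1 CPM (the count of a gene scaled to the size of its library) over the 6 libraries are described here. Liver RNA came from C57BL/6 mice that were 8 weeks old, with no genetic change named in the labels, and the methods describe male mice for the study in general. All mice had been fasted overnight. The control group (Vehicle) was 3 mice given vehicle and the treated group was 3 mice given FGF19 at 1 mg/kg, and the methods describe the mice of both groups as fasted when the livers were taken. FGF19 is a human gut hormone whose mouse counterpart is FGF15, and the study used it to ask how this late fed-state signal changes gene expression in liver.

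CYP2 enzymes sit in the membrane of the endoplasmic reticulum and use electrons from cytochrome P450 reductase to put 1 atom of oxygen into a substrate. Substrates include drugs, plant compounds, solvents, steroids, fatty acids and bile acids. In mice several subfamilies are long arrays of neighbouring genes with very similar sequences, and many of them depend on liver transcription factors, on xenobiotic receptors such as CAR, and on the sex pattern of growth hormone.

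The libraries held between 18994654 and 22920056 counts, so that a count of 0 allows up to between 0.131 and 0.158 CPM, a limit that covers counting error only. Levels are given as CPM scaled by edgeR's TMM method, and differences as log2 fold changes of FGF19 against Vehicle with their standard error (SE). A gene is called lower or higher where its Benjamini-Hochberg adjusted p, taken over the 12559 genes tested with the quasi-likelihood method of edgeR, is under 0.05. An exact test of 3 values against 3 cannot give a two-sided p below 0.1, so no single gene was tested in that way. Hepatocyte markers were high in every library, with a summed level of 98812 to 102555 CPM in Vehicle and 92684 to 103031 CPM after FGF19, and edgeR called none of the 7, with 2 at an unadjusted p under 0.05, as DESeq2 called none.

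CYP2 genes took a smaller share of the counts in FGF19-treated livers. The family took between 1.92% and 2.01% of all counts in Vehicle mice and between 1.46% and 1.61% in FGF19-treated mice, and its summed level was 19624 ± 397 CPM (SD, n = 3) against 15295 ± 1246 CPM (SD, n = 3). The 3 FGF19-treated mice were all below the 3 Vehicle mice in this sum, which was not tested. Much of it is Cyp2e1, with means of 9603 CPM in Vehicle and 7324 CPM after FGF19. Cyp2d9 had means of 2461 and 1866 CPM, and edgeR called neither gene. In whole liver RNA, fewer cells of a type and less RNA per cell cannot be told apart. Of the 29 genes, 4 fell, namely Cyp2a5, Cyp2c54, Cyp2c37 and Cyp2c50, and 1 rose, Cyp2c70. Of all genes tested, 7.41% were called in either direction, 2.84% lower and 4.56% higher. At the p under 0.01 that the study used, 9 members were lower and 1 was higher, where 4.98% and 6.20% of all genes tested passed. DESeq2 called 10 members lower, the same 4 with Cyp2e1, Cyp2d22, Cyp2c29, Cyp2c39, Cyp2c44 and Cyp2a22, beside 4.16% of the genes it tested. All 29 passed the filter on low counts. The FGF19 values lay wholly below the Vehicle values in 13 members and wholly above in 1, which over all genes tested was so in 13.8% and 14.5%, and the groups overlapped in 15. The log2 fold change was below 0 in 24 of 29 members, against 50.1% of all genes tested, and the median was -0.34, against -0.00 for all genes tested.

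**Figure D1:**
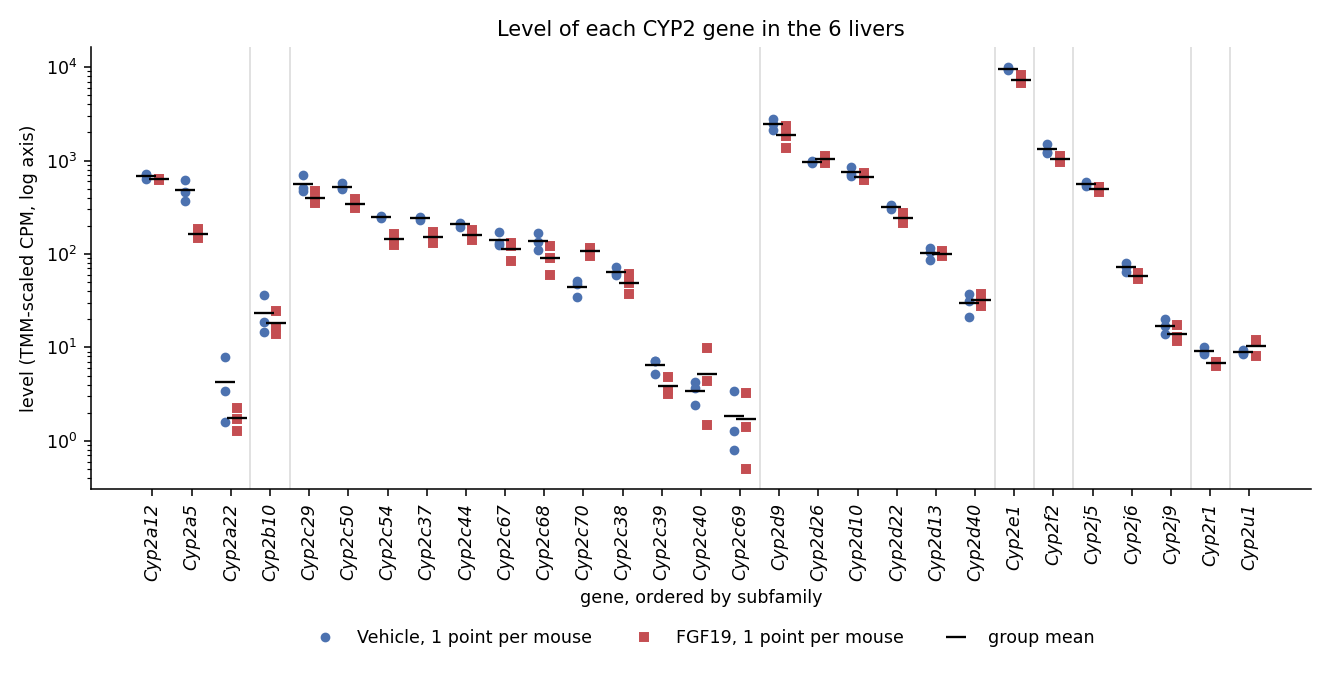
Level of the 29 CYP2 genes in TMM-scaled CPM on a log axis, with 1 point per mouse (circles Vehicle, squares FGF19, 3 mice each) and bars at the group means. Among the genes called, Cyp2a5 and Cyp2c70 show the widest gaps between the groups, and Cyp2e1 is the gene with the most CPM in every mouse.

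Per kilobase of exon, Cyp2e1 was far above the other members in Vehicle livers, at 5532 ± 171 RPKM (SD, n = 3). It was followed by Cyp2d9 at 1491 RPKM, Cyp2f2 at 726 RPKM, Cyp2d26 at 590 RPKM and Cyp2d10 at 457 RPKM, and the Vehicle values of these 5 genes did not overlap between neighbours in the order. The values of Cyp2d10 overlapped those of Cyp2a12 (410 RPKM), those of Cyp2a12 overlapped those of Cyp2c29 (316 RPKM), and those of Cyp2c29 overlapped those of Cyp2a5 (283 RPKM). Cyp2c50 (180 RPKM) and Cyp2j5 (155 RPKM) completed the first 10. The exons of Cyp2c50 in the files, 8 with 2932 bases in all, do not contain the coding sequence of this gene in the GENCODE annotation, so its level per length is uncertain. After FGF19, Cyp2f2 and Cyp2d26 changed places in this order, Cyp2a5 went from rank 8 to rank 10 and Cyp2c70 from rank 19 to rank 16. At the lower end, the genes nearest the limit of 1 CPM were Cyp2c69 and Cyp2a22 inside it, with means of 1.79 and 3.03 CPM, and Cyp2c55 and Cyp2d11 outside it, with means of 0.663 and 0.591 CPM.

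The CYP2A genes lie in an array with CYP2B, CYP2F and other CYP2 genes on chromosome 7. Cyp2a5, the mouse counterpart of human CYP2A6 and the enzyme that hydroxylates coumarin and nicotine, fell more than any other called member. It lies at chr7:27620358-27628283 of mm9 on the plus strand and its exons sum to 1715 bases. Its level was 622, 367 and 467 CPM in Vehicle replicates 1, 2 and 3, and 147, 183 and 167 CPM in FGF19 replicates 1, 2 and 3. Every FGF19-treated mouse was far below the lowest Vehicle mouse, and the Vehicle mice differed from each other more than the treated mice did. The mean of Cyp2a5 was 486 ± 129 CPM (SD, n = 3) in Vehicle and 166 ± 18.1 CPM (SD, n = 3) after FGF19, a log2 fold change of -1.55 (SE 0.177, adjusted p = 0.00112), which is 2.93-fold lower. Cyp2a12, a steroid 7-alpha hydroxylase that also rehydroxylates bile acids in mouse liver, was measured at 712, 699 and 637 CPM in Vehicle and at 619.9, 632 and 642 CPM after FGF19. These ranges overlap, and the log2 fold change of -0.11 (SE 0.0853, adjusted p = 0.484) was not called. Cyp2a22 was low, at 1.59 to 7.82 CPM in Vehicle and 1.27 to 2.25 CPM after FGF19. Its log2 fold change of -1.30 had a wide error (SE 0.494, adjusted p = 0.151), and its call changed with 1 library, since the adjusted p was 0.0347 without Vehicle replicate 2. With another library left out the adjusted p reached 0.485. DESeq2 called Cyp2a22 lower (adjusted p = 0.0392). Over 12 alternative settings its log2 fold change ran from -1.69 to -0.53.

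Cyp2a5 is counted beside a near copy. Its exons are 98.2% identical to those of Cyp2a4, a steroid 15-alpha hydroxylase that is higher in female liver, and 14.0% of the 100-base windows of the Cyp2a5 exons are found exactly elsewhere in mm9. Their coding sequences are both 1485 bases long and differ at 23 positions, with an unbroken identical run of 216 bases. The stretch from base 596 to base 655 of the coding sequence, counted from the start codon, is shown because it holds 4 of these differences, which are in capitals, read 5′ to 3′ from the GENCODE transcripts of mm9.
Cyp2a5: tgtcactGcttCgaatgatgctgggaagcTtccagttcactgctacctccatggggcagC
Cyp2a4: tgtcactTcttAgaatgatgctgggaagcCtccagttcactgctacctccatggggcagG
Cyp2a4 had at most 1.06 CPM in any library, and the sum over the 4 CYP2A genes, which does not depend on how reads were split among them, lay below every Vehicle value in all 3 treated mice. That sum was 1173 ± 148 CPM (SD, n = 3) in Vehicle and 799 ± 26.4 CPM (SD, n = 3) after FGF19. It does not recover reads that aligned to several places, which the authors left out.

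The 250 bases before the annotated start of Cyp2a5, at chr7:27620108-27620357 of mm9 on the plus strand, are shown because this was the member with the largest called fall. Capitals mark matches to GTTAAT (a half-site of HNF1), TTGCNNAA (a pattern bound by C/EBP factors) and TATAAA (the core promoter box), 161, 71 and 29 bases before the start.
Cyp2a5: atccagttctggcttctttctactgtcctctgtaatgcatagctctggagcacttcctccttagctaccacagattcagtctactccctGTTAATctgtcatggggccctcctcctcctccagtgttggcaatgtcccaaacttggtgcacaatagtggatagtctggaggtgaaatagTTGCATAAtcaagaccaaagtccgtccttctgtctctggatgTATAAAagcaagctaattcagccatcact
Both strands were searched. GTTAAT was found in 5 of the 29 member promoters and in 5.64% of 23091 promoters of the same length, TTGCNNAA in 7 and in 8.58%, and TATAAA in 14 and in 12.03%, or 6.48% of those of the genes tested. A match is only a match of letters.

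CYP2C is the largest subfamily in these livers, with 12 members at 1 CPM or more, 11 of them in 1 stretch of chromosome 19. Many CYP2C enzymes epoxidize arachidonic and linoleic acid. Of the 12, 3 fell and 1 rose, 8 were not called, and 10 had a log2 fold change below 0, with a median of -0.45. The 3 genes that fell are neighbours. In order along the chromosome they are Cyp2c37 (chr19:40066914-40086733, plus strand), Cyp2c54 (chr19:40112430-40148303, minus strand) and Cyp2c50 (chr19:40164169-40188445, plus strand), and the next gene is Cyp2c70 (chr19:40227851-40261776, minus strand), the gene that rose.

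Cyp2c54 was measured at 249.8, 242 and 253 CPM in Vehicle replicates 1, 2 and 3 and at 143, 164 and 124 CPM in FGF19 replicates 1, 2 and 3. Cyp2c37 was measured at 246, 232 and 251 CPM in Vehicle and at 156, 173 and 129.7 CPM after FGF19. Cyp2c50 was measured at 572, 498 and 511 CPM in Vehicle and at 336, 389.8 and 311 CPM after FGF19. In all 3 genes the groups were apart, the Vehicle mice were close together, and FGF19 replicate 2 was the highest and FGF19 replicate 3 the lowest of the treated mice. The mean of Cyp2c54 fell from 248 ± 5.73 to 143 ± 20.1 CPM (SD, n = 3), a log2 fold change of -0.79 (SE 0.108, adjusted p = 0.00282), or 1.73-fold lower. Cyp2c37 fell from 243 ± 9.70 to 153 ± 22.0 CPM (SD, n = 3), with a log2 fold change of -0.67 (SE 0.111, adjusted p = 0.00808). Cyp2c50 fell from 527 ± 39.4 to 346 ± 40.2 CPM (SD, n = 3), with a log2 fold change of -0.61 (SE 0.107, adjusted p = 0.0101). Cyp2c50 was not called without FGF19 replicate 1, where the log2 fold change was -0.59 with an adjusted p of 0.0529. Over all genes, that setting called 118 lower, against 357 with all libraries.

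Cyp2c70 is the mouse enzyme that converts chenodeoxycholic acid into muricholic acids, and so gives the mouse bile acid pool its hydrophilic character. It was measured at 51.2, 48.1 and 35.1 CPM in Vehicle replicates 1, 2 and 3 and at 94.5, 116 and 112 CPM in FGF19 replicates 1, 2 and 3. All treated mice were above the highest Vehicle mouse. The mean of Cyp2c70 was 44.8 ± 8.53 CPM (SD, n = 3) in Vehicle and 107 ± 11.3 CPM (SD, n = 3) after FGF19, a log2 fold change of 1.26 (SE 0.145, adjusted p = 0.00117), which is 2.40-fold higher. It was the 1 member called higher. Its nearest relative in the family is Cyp2c55, at 70.9% identity over 1394 bases, and none of the 100-base windows of its exons is found elsewhere in mm9. Neither trait is particular to Cyp2c70. Cyp2c44, Cyp2e1 and Cyp2f2 were less alike to their nearest relatives, at 69.2%, 66.3% and 64.6%. In all, 12 of the 29 members had no window found elsewhere.

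The promoters of these 4 neighbours are shown because 3 of the genes fell and 1 rose. Each is the 250 bases before the annotated start in mm9, read 5′ to 3′ on the strand of the gene, at chr19:40066664-40066913 for Cyp2c37, chr19:40148304-40148553 for Cyp2c54, chr19:40163919-40164168 for Cyp2c50 and chr19:40261777-40262026 for Cyp2c70. Capitals mark matches on either strand to TTGCNNAA, AGGTCA (a nuclear receptor half-site) or TATAAA.
Cyp2c37: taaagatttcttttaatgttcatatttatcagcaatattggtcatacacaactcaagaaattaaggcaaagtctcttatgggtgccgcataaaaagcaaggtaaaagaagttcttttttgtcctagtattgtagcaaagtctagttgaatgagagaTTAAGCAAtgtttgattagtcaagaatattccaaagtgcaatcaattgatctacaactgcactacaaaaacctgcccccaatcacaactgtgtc
Cyp2c54: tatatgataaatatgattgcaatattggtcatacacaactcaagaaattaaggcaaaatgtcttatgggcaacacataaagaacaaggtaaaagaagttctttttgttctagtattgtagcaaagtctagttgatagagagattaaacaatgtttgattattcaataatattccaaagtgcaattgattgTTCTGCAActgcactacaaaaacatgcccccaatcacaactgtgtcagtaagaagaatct
Cyp2c50: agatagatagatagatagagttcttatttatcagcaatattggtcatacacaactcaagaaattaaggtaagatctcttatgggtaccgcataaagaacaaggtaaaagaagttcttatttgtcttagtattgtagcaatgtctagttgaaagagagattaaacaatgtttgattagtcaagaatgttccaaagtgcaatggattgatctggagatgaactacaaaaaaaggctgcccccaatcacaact
Cyp2c70: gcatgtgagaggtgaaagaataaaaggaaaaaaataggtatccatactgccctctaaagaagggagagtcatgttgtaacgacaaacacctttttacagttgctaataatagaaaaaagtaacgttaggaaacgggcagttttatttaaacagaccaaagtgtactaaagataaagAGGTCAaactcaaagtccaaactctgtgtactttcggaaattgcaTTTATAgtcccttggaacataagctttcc
The first 3 are alike, with pairwise identities of 87.8% to 90.04% over their aligned bases, while the promoter of Cyp2c70 is 61.0% to 66.3% identical to each of them. By the same measure the promoter of Cyp2a5, on chromosome 7, is 60.5% to 62.7% identical to them. TTGCNNAA is found 94 bases before the start of Cyp2c37 and 60 bases before that of Cyp2c54, and these letters are not in the window of Cyp2c50. Cyp2c70 has AGGTCA 74 bases and TATAAA 29 bases before its start. AGGTCA was found in 5 of 29 member promoters and in 12.2% of all promoters of this length. TTANGTAA, the pattern of the PAR bZIP factors DBP, HLF and TEF, was found in 1 of 29, in that of Cyp2c38, and in 1.83% of all.

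The transcripts of the 3 genes that fell are also alike. Cyp2c37 and Cyp2c50 differ at 57 of 1473 coding bases, with a longest identical run of 154 bases, and Cyp2c54 and Cyp2c50 differ at 70, with a longest run of 198 bases. The share of 100-base windows found elsewhere was 7.65% for Cyp2c54, 6.85% for Cyp2c50 and 4.70% for Cyp2c37. A stretch from base 331 to base 390 of the coding sequences of Cyp2c37 and Cyp2c50 is given as an example, with the 7 bases that differ in capitals.
Cyp2c37: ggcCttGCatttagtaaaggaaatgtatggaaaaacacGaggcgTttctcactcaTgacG
Cyp2c50: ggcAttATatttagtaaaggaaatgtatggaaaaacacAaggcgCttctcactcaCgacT
Reads that align equally well to both genes were left out by the authors, so the counts come from reads that reach a base that differs, and the levels may be too low.

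The other 8 CYP2C genes were not called. Cyp2c29, an abundant epoxygenase of mouse liver, was measured at 707, 475 and 512 CPM in Vehicle and at 368, 469.7 and 349.5 CPM after FGF19. The groups were apart only by a small margin between Vehicle replicate 2 and FGF19 replicate 2, and the log2 fold change was -0.51 (SE 0.164, adjusted p = 0.0968). Without Vehicle replicate 1 this log2 fold change was -0.32 (adjusted p = 0.249). Cyp2c39, which hydroxylates retinoic acid, was low, at 5.19 to 7.24 CPM in Vehicle and 3.16 to 4.82 CPM after FGF19, with a log2 fold change of -0.77 and an adjusted p of 0.0551. Cyp2c44, an epoxygenase that lies apart from the others on chromosome 19, was at 195 to 217 CPM in Vehicle and 141 to 182 CPM after FGF19, with a log2 fold change of -0.37 and an adjusted p of 0.0733. In these 3 genes the groups did not overlap, and with DESeq2 all 3 were called lower, at adjusted p of 0.0234, 0.0206 and 0.0350. Cyp2c38, Cyp2c67, Cyp2c68, Cyp2c40 and Cyp2c69 had overlapping groups, with log2 fold changes from -0.61 for Cyp2c68 to 0.60 for Cyp2c40 and adjusted p between 0.157 and 0.944.

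Cyp2c40, Cyp2c67, Cyp2c68 and Cyp2c69 form a set in which shared sequence is heaviest. The share of windows found elsewhere was 44.2% in Cyp2c40, 33.6% in Cyp2c69, 24.1% in Cyp2c67 and 19.3% in Cyp2c68, and the exons of Cyp2c40 and Cyp2c68 are 97.9% identical. Cyp2c40, known as a gene of female liver, was at 4.24, 3.66 and 2.43 CPM in Vehicle and at 4.37, 9.79 and 1.49 CPM after FGF19. The treated group held both its highest and its lowest value, so that the SE of 0.525 was close to the log2 fold change of 0.60. Other female-type genes were also highest or nearly so in FGF19 replicate 2, since Cyp2b9 was at 1.65 CPM there and at most 0.381 CPM elsewhere, Cyp2a4 was at 1.06 CPM and at most 0.286 CPM elsewhere, and Cyp2c69 was at 3.26 CPM, beside 3.43 CPM in Vehicle replicate 1.

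**Figure D2:**
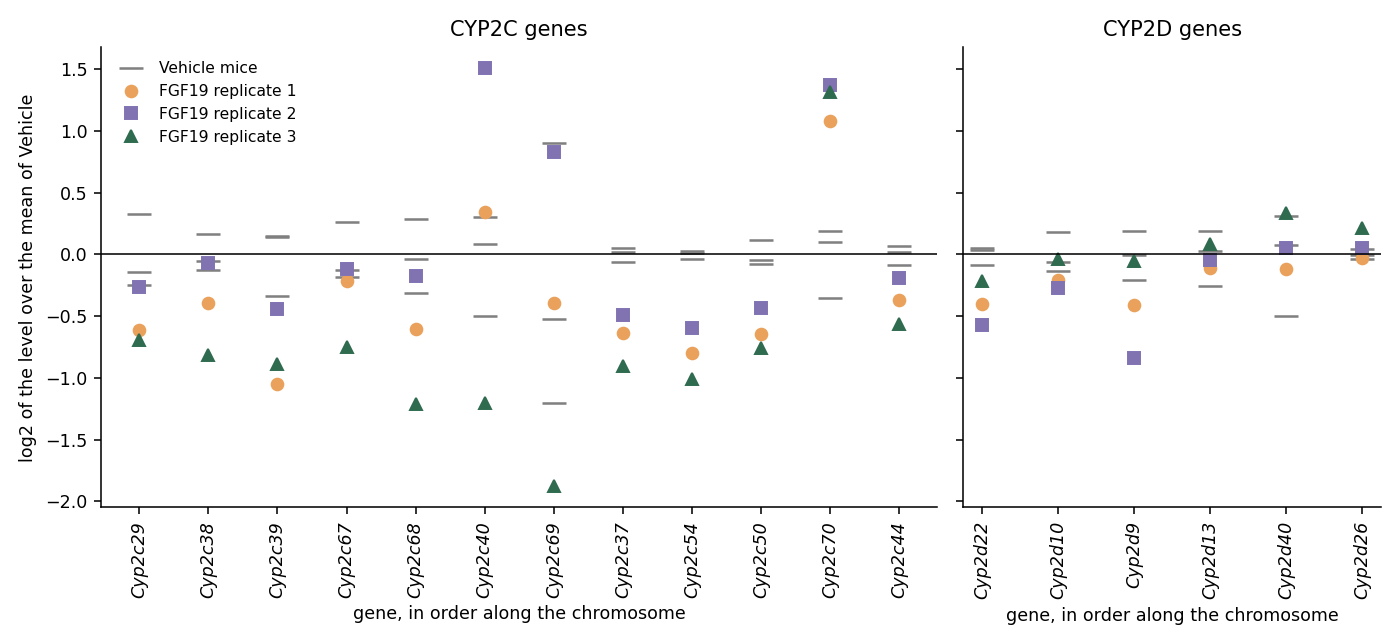
Log2 of the level over the Vehicle mean for the 12 CYP2C and the 6 CYP2D genes in their order along the chromosome, with dashes for the 3 Vehicle mice and a symbol for each FGF19-treated mouse. FGF19 replicate 3 is the lowest treated mouse in 10 of 12 CYP2C genes and the highest in 6 of 6 CYP2D genes.

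The treated mice differed among themselves by subfamily. FGF19 replicate 2 had the highest value of the treated mice in 12 of 12 CYP2C genes. FGF19 replicate 3 had the lowest in 10 of 12 CYP2C genes but the highest in 6 of 6 CYP2D genes and in 14 of the 17 members outside CYP2C. With scaling by total count in place of TMM the CYP2C and CYP2D counts were the same and the last was 12 of 17. No test was made of this pattern, which was seen after the values were known, and neighbouring genes share their mice.

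The CYP2D genes form an array on chromosome 15, the mouse counterpart of human CYP2D6. None of the 6 was called by edgeR (1 had an unadjusted p under 0.05 and DESeq2 called 1, Cyp2d22 in both cases), 4 had a log2 fold change below 0 and the median was -0.10. Cyp2d9, a testosterone 16-alpha hydroxylase of male liver, was measured at 2129.9, 2800.2 and 2454 CPM in Vehicle and at 1856, 1376 and 2365 CPM after FGF19. FGF19 replicate 3 lay inside the Vehicle range, and the log2 fold change was -0.40 (SE 0.184, adjusted p = 0.232). Without that mouse it was -0.60 with an adjusted p of 0.0338. Cyp2d26 was measured at 969.5, 999.7 and 945 CPM in Vehicle and at 952, 1006 and 1127 CPM after FGF19, with a log2 fold change of 0.08 (SE 0.0940, adjusted p = 0.662). Cyp2d10 was measured at 686, 850.4 and 719.6 CPM in Vehicle and at 652, 621 and 733 CPM after FGF19, with overlapping groups and a log2 fold change of -0.17 (SE 0.110, adjusted p = 0.410). It shares 16.4% of its windows with other places. Cyp2d22, the CYP2D gene often set beside human CYP2D6, was the 1 member of the subfamily whose groups did not overlap, with 301 to 332 CPM in Vehicle and 216 to 275 CPM after FGF19. Its log2 fold change of -0.39 (SE 0.104) just missed the threshold at an adjusted p of 0.0545, and 5 of 12 alternative settings called it lower. Cyp2d13 and Cyp2d40 had log2 fold changes of -0.02 and 0.10. The summed CYP2D level was 4638 ± 450.3 CPM (SD, n = 3) against 3941 ± 657 CPM (SD, n = 3), with overlapping groups.

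Cyp2e1, the ethanol- and acetaminophen-oxidizing enzyme, alone made up 0.931% to 1.00% of all counts in Vehicle and 0.675% to 0.791% after FGF19. It was measured at 9936, 9366 and 9506 CPM in Vehicle replicates 1, 2 and 3 and at 6718, 7049 and 8205 CPM in FGF19 replicates 1, 2 and 3. All treated mice were below all Vehicle mice, and FGF19 replicate 3 was nearest to them. The log2 fold change was -0.39 (SE 0.109), or 1.31-fold lower, with an adjusted p of 0.0645, so that Cyp2e1 was not called. It was called lower with DESeq2 (adjusted p = 0.00544), on total counts without TMM (adjusted p = 0.0374) and without FGF19 replicate 3 (adjusted p = 0.00895).

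Cyp2f2, an enzyme of naphthalene bioactivation, was measured at 1217, 1520.5 and 1225 CPM in Vehicle and at 1049, 974 and 1126 CPM after FGF19. The groups were apart and the log2 fold change was -0.33 (SE 0.114, adjusted p = 0.116). Of the CYP2J genes, which encode arachidonic acid epoxygenases and hydroxylases, Cyp2j5 was the most abundant per length. It was measured at 595, 560.1 and 541 CPM in Vehicle and at 523, 516 and 466 CPM after FGF19, with a log2 fold change of -0.17 (SE 0.0887, adjusted p = 0.285), also with groups apart. Cyp2j6 and Cyp2j9 had log2 fold changes of -0.30 and -0.30 and adjusted p of 0.121 and 0.368.

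Cyp2b10, the classical target of the receptor CAR, was the 1 CYP2B gene at 1 CPM or more. It was measured at 14.5, 36.7 and 18.8 CPM in Vehicle and at 16.4, 13.9 and 24.9 CPM after FGF19. The groups overlapped, Vehicle replicate 2 was the highest value, and the log2 fold change was -0.34 (SE 0.324, adjusted p = 0.589), or 0.14 without that mouse. Cyp2r1, a vitamin D 25-hydroxylase, was at 8.43 to 10.1 CPM in Vehicle and 6.34 to 7.06 CPM after FGF19, with a log2 fold change of -0.44 and an adjusted p of 0.0804. Cyp2u1, a hydroxylase of long-chain fatty acids, was at 8.48 to 9.38 CPM in Vehicle and 8.00 to 12.1 CPM after FGF19, with overlapping groups, a log2 fold change of 0.24 and an adjusted p of 0.431.

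**Figure D3:**
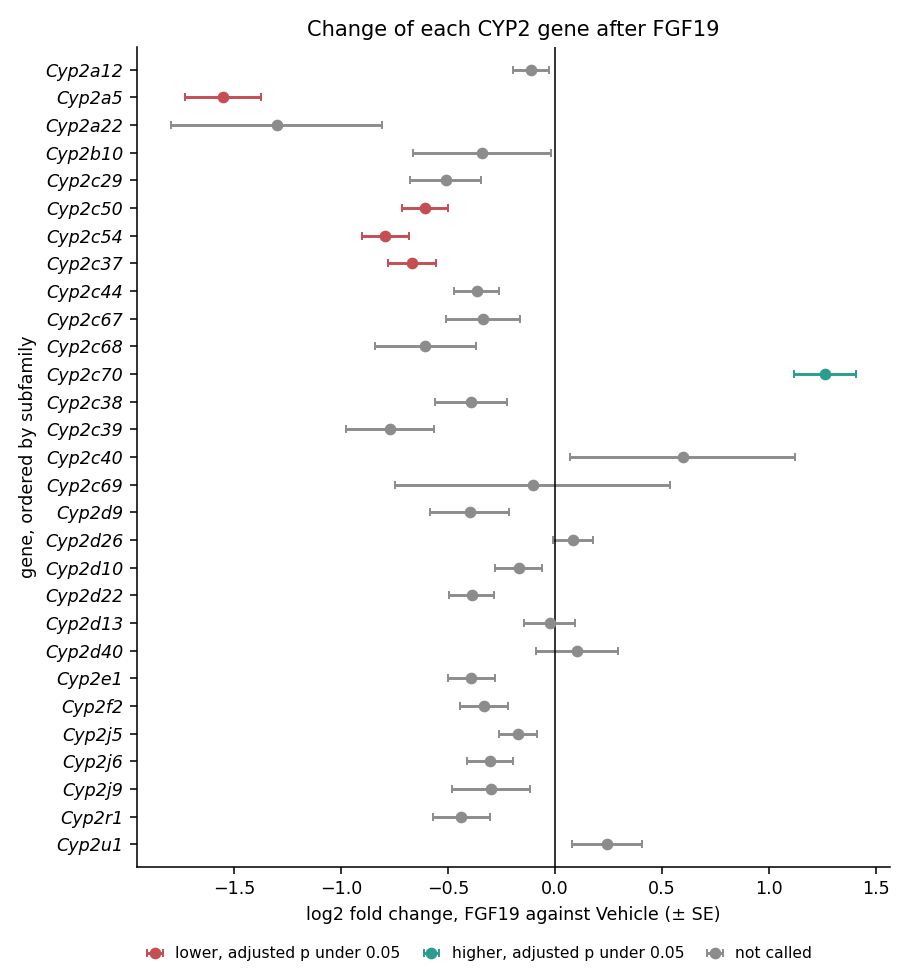
Log2 fold change of FGF19 against Vehicle with its SE for the 29 CYP2 genes by subfamily, from edgeR's quasi-likelihood fit of 3 mice against 3. The 4 genes called lower lie between -1.55 and -0.61 and Cyp2c70, called higher, lies at 1.26, while 20 of the 24 genes not called lie left of 0.

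Summed by subfamily, over all members whatever their level, the FGF19 values lay wholly below the Vehicle values in CYP2A, CYP2C, CYP2E, CYP2F, CYP2J and CYP2R, and the groups overlapped in CYP2B, CYP2D and CYP2U. The sums differed, as FGF19 against Vehicle, by -31.9% in CYP2A, -28.4% in CYP2C, -26.1% in CYP2R, -23.7% in CYP2E, -20.5% in CYP2F, -19.3% in CYP2B, -15.0% in CYP2D and -12.3% in CYP2J, and by 18.2% in CYP2U. CYP2E, CYP2F, CYP2R and CYP2U are 1 gene each. Nearly all of the CYP2B sum is Cyp2b10, whose log2 fold change was 0.14 without Vehicle replicate 2. The CYP2C sum was 2192 ± 247 CPM (SD, n = 3) in Vehicle and 1570.0 ± 239.7 CPM (SD, n = 3) after FGF19, which includes the rise of Cyp2c70. These sums were not tested.

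**Figure D4:**
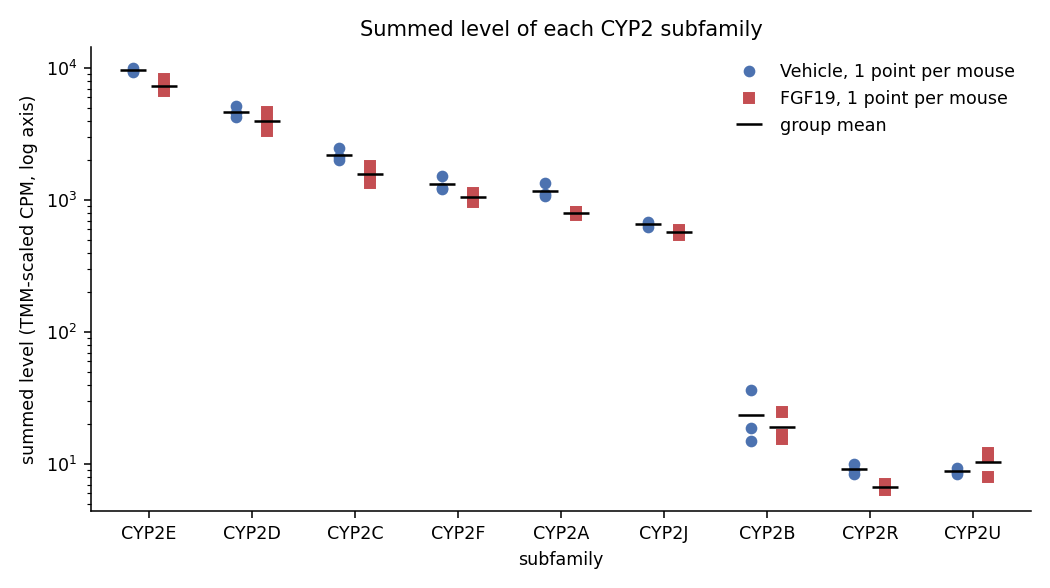
Summed level of each CYP2 subfamily in TMM-scaled CPM on a log axis, with 1 point per mouse (circles Vehicle, squares FGF19, 3 mice each) and bars at the group means. CYP2E leads at 9603 CPM in Vehicle and 7324 CPM after FGF19, and the 3 treated mice lie below all Vehicle mice in 6 of the 9 subfamilies.

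Most members had some exon sequence that can lose reads to near copies, often a small share. Of the 29, 12 had no 100-base window that is found elsewhere in mm9, among them Cyp2c70, Cyp2c29, Cyp2f2, Cyp2j5 and Cyp2b10, and the median was 0.698%. The share was over 10% in 6, namely Cyp2a5, Cyp2d10 and the set of Cyp2c40, Cyp2c67, Cyp2c68 and Cyp2c69. Of these 6 genes Cyp2a5 was called. Without them 3 of 23 members were lower and 1 was higher, and the median log2 fold change was -0.37. This measure takes windows of the length of 1 read and exact copies only, and no exon of a member overlaps another gene in the files.

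**Figure D5:**
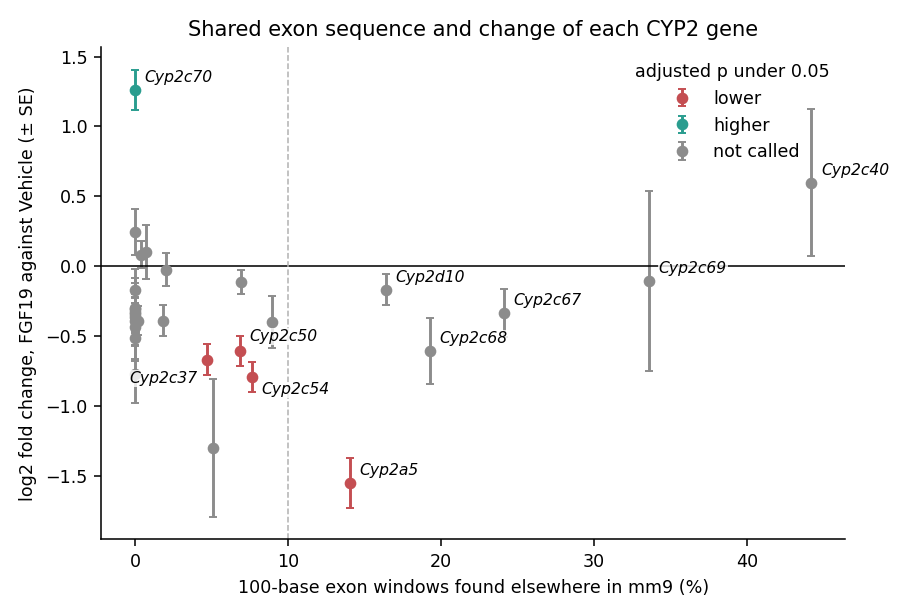
Log2 fold change with its SE against the percentage of 100-base exon windows found exactly elsewhere in the mm9 genome, for the 29 CYP2 genes, with a dashed line at 10%. Cyp2c70 has none and Cyp2a5 has 14.0%, and Cyp2c40, with 44.2%, has an SE of 0.525.

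The other 19 genes of the family were below 1 CPM. Of these, 7 had no count in any library, 12 had at least 1 count, and 3 passed the filter on low counts. These 3 were Cyp2g1, an enzyme of olfactory mucosa, Cyp2c55 and Cyp2d11, with log2 fold changes of -1.29, -1.05 and 0.78 and adjusted p of 0.104, 0.153 and 0.263.

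Genes that work with CYP2 enzymes or control them were taken as lists from background knowledge. Of 9 tested partners of P450 enzymes, edgeR called none lower (5 had an unadjusted p under 0.05, and DESeq2 called 3), and Hmox1, which breaks down heme, was higher, at a log2 fold change of 0.71 (adjusted p = 0.0166). Por, the reductase that feeds electrons to the family, was at 699 ± 84.9 CPM in Vehicle and 478 ± 89.7 CPM after FGF19 (SD, n = 3), with a log2 fold change of -0.55 that was not called (adjusted p = 0.0520). Of 20 regulators, 6 fell and 1 rose, with a median log2 fold change of -0.22. Nr1i3, which encodes CAR, fell from 179 ± 11.7 to 115 ± 28.7 CPM (SD, n = 3), a log2 fold change of -0.64 (adjusted p = 0.0381). The PAR bZIP genes Dbp and Tef had log2 fold changes of -1.59 and -0.84, the xenobiotic receptor gene Ahr -1.42, the liver transcription factor gene Onecut1 -1.40 and Nr1h4, which encodes FXR, -0.61, with adjusted p between 0.00197 and 0.0185. Nr0b2, which encodes the repressor SHP, rose by 1.38 (adjusted p = 0.00823). Nr1i2, Hnf4a and Cebpa had log2 fold changes of -0.19, -0.31 and -0.26 and adjusted p of 0.475, 0.120 and 0.126. Of 12 tested CAR targets outside the family, 1 fell, Aldh1a1, with a log2 fold change of -0.60 (adjusted p = 0.0215).

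Other gene groups moved in the same livers. Acute phase genes, which encode plasma proteins of inflammation, were higher in 18 of 20, with a summed level of 21053 to 25322 CPM in Vehicle and 66866 to 73497 CPM after FGF19. Neutrophil markers were near 0 in all libraries but summed to more after FGF19, at 0.762 to 2.28 CPM in Vehicle and 3.98 to 5.38 CPM after FGF19, with S100a9 the 1 of 2 tested that was called. Of 7 tested Kupffer cell markers edgeR called 1, Marco, which rose by 2.29 on the log2 scale (adjusted p = 0.00105). At an unadjusted p under 0.05 in edgeR, 1 was lower and 2 were higher. DESeq2 called Marco higher and Vsig4, with a log2 fold change of -0.54 in edgeR, lower. The summed level of the list overlapped between the groups. Among 6 markers of sinusoidal endothelium edgeR called 1, Cdh5, which rose by 0.43 on the log2 scale (adjusted p = 0.0275). DESeq2 called Cdh5 higher and Clec4g, with a log2 fold change of -0.38 in edgeR, lower. The summed levels of the endothelial, stellate cell, cholangiocyte and lymphocyte lists overlapped between the groups. Of 12 pericentral genes outside the family none was called by edgeR or DESeq2, with 1 at an unadjusted p under 0.05 in edgeR, and of 12 periportal genes Sds, Gls2 and Asl were lower. Of 10 genes that are higher in male liver edgeR called none, with 3 lower and 1 higher at an unadjusted p under 0.05. DESeq2 called 2 of them, Cyp4a12a lower and Cyp7b1 higher. The part of any of these in the CYP2 differences was not tested.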

How the data were processed

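Liver RNA of 3 Vehicle and 3 FGF19-treated mice was sequenced as paired-end reads. The authors aligned the reads with STAR (version 2.5.3a in the submitters' processing notes, and another in the methods) and counted them on mm9 exons with featureCounts 1.5.2, and the deposited values are these raw counts. Per the file headers, strand was not used, each mate was counted as a read, and reads with several alignments were left out, which lowers the counts of near-identical genes. The notes also name FastQC 0.11.5, Trimmomatic 0.36 and bcl2fastq 2.17.1.14. The authors' own table of fold changes and p-values was not used.

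The comparison was made with edgeR 4.0.16 in R 4.3.3, using filterByExpr, TMM scaling and the quasi-likelihood test without covariates, with Benjamini-Hochberg adjustment over 12559 genes. The methods name edgeR but not the kind of test. The SE is the log2 fold change divided by the square root of the F statistic. The script was tested on simulated data. No pair of libraries agreed within sampling noise, with a chi-square per degree of freedom of at least 8.68, so all count as separate samples. The p-values measure the spread among 3 mice a group. RPKM divides CPM by the exon length in the files.

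Exon windows of 100 bases were searched in mm9 on both strands, identities came from BLASTN 2.17.0, and promoter and coding sequences came from the mm9 genome and GENCODE transcripts of the same build. No protein sequences were used here. Members called at an adjusted p under 0.05 and the 10 with the highest RPKM are given in full and the others by range. The members, lists, motifs and example stretches were chosen with earlier results of these data known, so no list was tested. The result of the list of female-biased genes is not reported here. Alternatives were DESeq2 1.42.0, RLE scaling, total count scaling, no filter, at least 1 CPM in every library, a block for the replicate number, removal of each library in turn, p under 0.01, and leaving out members that share over 10% of windows.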

Additional observations from a re-analysis of the deposited data

How the results depend on the processing

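Members called lower numbered 4, and 10 with DESeq2, 9 at p under 0.01 and 3 to 8 with single libraries left out (3 without FGF19 replicate 1, 8 without FGF19 replicate 3). The count of 1 higher and the direction of the median were the same under all alternatives run. Cyp2a5, Cyp2c54, Cyp2c37 and Cyp2c70 were called in all 12 alternatives, with adjusted p of at most 0.0492 (edgeR or DESeq2, Benjamini-Hochberg), and Cyp2c50 in 11. Among the members not called, 17 combinations of gene and alternative reached the threshold, and 5 genes changed sign with 1 library left out. Without single libraries, the log2 fold change ran from -0.14 to 0.082 in Cyp2d13, from -0.093 to 0.28 in Cyp2d40, from -0.23 to 1.04 in Cyp2c40, from -0.96 to 0.74 in Cyp2c69 and from -0.62 to 0.14 in Cyp2b10. The causes were not tested. The replicate numbers do not pair the mice (correlations of deviations -0.03, -0.18 and -0.18), and with a replicate block 4 members were lower and 1 higher. Over all genes the block gave 164 lower and 370 higher genes, against 357 and 573. Cyp2a22, Cyp2c40 and Cyp2c69 were low, with means of 3.03, 4.37 and 1.79 CPM, and had wide SEs of 0.494, 0.525 and 0.643. Cyp2c39, at a mean of 5.20 CPM, had an SE of 0.207. Whether depth or spread between mice set these SEs was not tested.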
